A study of Rattus norvegicus with 74 samples.

Results

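The comparison described here asked whether 4 weeks of treadmill training changed RNA levels in isolated skeletal muscle mitochondria differently from the whole muscle they came from. It was defined by a rule that used no measured value: over the libraries of muscle (SM) and mitochondria (MT), the MT change with training minus the SM change with training, with the rat as pairing block. This takes in 60 of the 74 libraries of the series, in 4 groups of 15 (SM_Sed, SM_ExT, MT_Sed and MT_ExT), and each of 30 rats gave 1 SM and 1 MT library. All rats were male wild-type Wistar Kyoto animals, 9 weeks old at collection, and all drank water carrying 8% deuterium oxide. Exercise-trained rats (ExT) ran on a motorized treadmill from 5 weeks of age, 5 days per week. The belt speed was 15 m/min in the opening week and 20 m/min after it, and sessions grew to 60 min. Sedentary controls (Sed) were put on treadmills left switched off. The inner red gastrocnemius was taken 24 hours after the last session. Part of it was frozen whole for SM, and fresh tissue gave MT by immunoprecipitation followed by RNase-A and proteinase-K, which remove RNA and protein outside the organelle.

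Skeletal muscle adapts to endurance training by raising its capacity for oxidative metabolism, and most of the proteins involved are made from nuclear genes, translated in the cytosol and imported into mitochondria. The mitochondrial genome itself encodes a small set of respiratory chain subunits together with the ribosomal and transfer RNAs needed to translate them. RNA of nuclear origin can also be recovered with isolated mitochondria. A contrast of this kind asks whether counts of nuclear genes in MT libraries follow the training response of the whole muscle. Whether those counts come from RNA held by the organelle was not tested. A negative value below means that the MT change lay below the SM change of the same rats, and a positive value that it lay above.

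Depth and make-up differed between the 2 kinds of library. SM libraries held 19477976 to 39401323 counts, and MT libraries 530397 to 9988027. From 12.9% to 95.4% of the counts of an MT library lay on the mitochondrial genome, against 22.1% to 35.9% in SM, so that 430162 to 1055433 counts per MT library were left for nuclear genes. Skeletal myofibre markers, 11 genes, summed to 239895 to 478338 CPM (counts scaled to a library of 1000000, with library sizes adjusted by the trimmed mean of M values, TMM) in SM and to 628 to 3726 CPM in MT. Olfactory and vomeronasal receptor genes, 1262 in the tables, summed to 8.77 to 17.8 CPM in SM and to 3433 to 4905 CPM in MT, and what these values have to do with the results below was not tested.

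Of 30560 genes, 27684 had enough counts to be tested. At a Benjamini-Hochberg adjusted p under 0.05 in edgeR's quasi-likelihood test, 3 genes (0.0108% of those tested) responded to training differently in MT and SM. All 3 had an MT response below the SM response: Tcte1, Lgr6 and a protein-coding gene listed without a symbol as ENSRNOG00000065488. No gene passed in the other direction in this test. With unadjusted p under 0.05 there were 2008 genes (7.25%), of which 791 (2.86%) lay above 0 and 1217 (4.4%) below, and the median over all genes tested was -0.01 on the log2 scale. DESeq2 called 13 genes, 4 above and 9 below 0, limma voom 3, all below 0, and a z value from tissues fitted alone 12, of which 3 lay above 0. The number of calls is small enough to change with single rats: leaving out each rat in turn gave 2 to 7 calls, with 5 or more without rat 2, 11, 17, 19 or 30, and 7 without rat 30.

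Tcte1, which encodes a subunit of the dynein regulatory complex of cilia and sperm tails, had the smallest p (ENSRNOG00000019961). In SM its level ran from 0.95 to 4.69 CPM in the sedentary rats, with a median of 2.17, and from 4.29 to 13.7 CPM in the trained rats, with a median of 7.6. In MT the sedentary rats ran from 8.26 to 18.7 CPM around a median of 14.8, and the trained rats from 9.00 to 19.3 CPM around 13.1. The SM groups barely met, with 14 of 15 trained libraries above the highest sedentary one, whereas the MT groups lay over each other. Training raised Tcte1 in SM by 1.68 (SE 0.198, log2; 3.22-fold; edgeR adjusted p = 1.28e-05), while in MT the fitted change was -0.14 (SE 0.110, edgeR adjusted p = 1.00). The difference of the responses was -1.91 (SE 0.204, log2; edgeR adjusted p = 1.8e-07), with a 95% interval from -2.33 to -1.50. Within rats, the log2 ratio of MT to SM had a mean of 2.45 ± 0.58 (SD, n = 15) in sedentary and 0.68 ± 0.49 (SD, n = 15) in trained animals, and 14 of the 15 trained rats lay below every sedentary rat. It was called in 13 of 14 other analyses, the exception being scaling by library totals alone (adjusted p = 0.312, log2 -2.11), and in all 30 fits that left out 1 rat. Counts behind these levels were 13 to 239 per SM library and 16 to 70 per MT library. The files give the symbol Tcte1 to a further gene, ENSRNOG00000065569, whose difference was -0.02 (SE 0.42) and changed sign between analyses. How reads shared by the 2 genes were counted is not given in the sources used here.

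Lgr6, a receptor for R-spondins that enhances Wnt signalling, showed the same arrangement at a smaller size. Its SM level ran from 3.34 to 9.56 CPM in sedentary rats (median 6.52) and from 8.39 to 16.1 CPM in trained rats (median 10.5). In MT the sedentary range, 11.8 to 28.5 CPM (median 20.0), held the whole trained range of 17.4 to 25.9 CPM (median 20.9). All 15 trained SM libraries exceeded the sedentary median, and 9 exceeded the highest sedentary library. The change was 0.76 (SE 0.123, log2; edgeR adjusted p = 0.00235) in SM and 0.05 (SE 0.092, edgeR adjusted p = 1.00) in MT. The responses differed by -0.73 (SE 0.132, edgeR adjusted p = 0.0184), and all 15 trained rats had an MT to SM ratio below the sedentary median. Lgr6 was called in 9 of 14 other analyses and in 29 of 30 fits that left out 1 rat, with an adjusted p of 0.0513 without rat 14.

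The third gene, ENSRNOG00000065488, falls outside the rule for genes to be named, which asks for a symbol, and is given here because it is 1 of only 3 calls. It rested on very few reads. In SM, 13 of 15 sedentary libraries had no count and the group held 2 counts in all, against 33 counts in the trained group, 0 to 7 per library. Scaled for library size, the ratio of these summed counts was 15.1, with an exact interval from 3.86 to 130 that covers counting error only. In MT the sedentary group held 109 counts (1 to 15 per library) and the trained group 56 (0 to 10 per library). Their ratio, scaled in the same way, was 0.557 (0.396 to 0.776, again for counting error only). Levels were thus higher in trained SM and lower in trained MT, with the MT groups overlapping over most of their range. The fitted difference of -3.53 (SE 0.631, edgeR adjusted p = 0.0184) depends on how counts near 0 are treated. Of 11 other analyses that kept the gene, 7 called it.

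**Figure D1:**
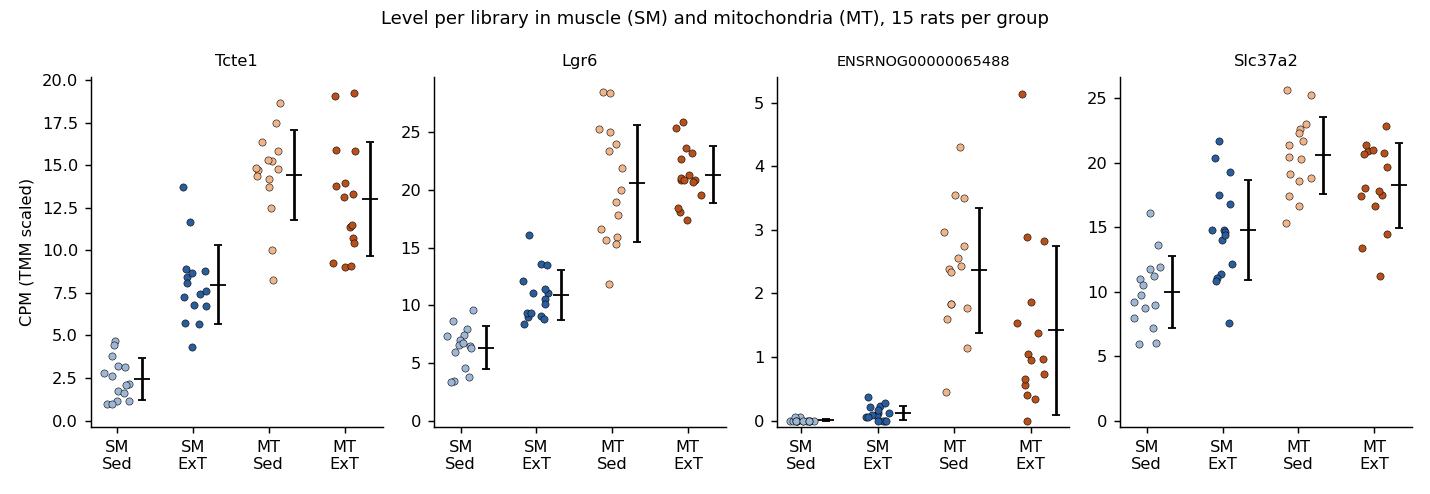
Scaled level (CPM, linear axes starting near 0) of 4 genes in each library, by tissue and arm; points are libraries, and the bar beside each group is its mean with 1 SD (15 rats). Tcte1 and Lgr6 were higher in trained than sedentary muscle, with medians of 7.6 against 2.17 and 10.5 against 6.52 CPM, while their mitochondrial groups overlap; Slc37a2 missed the threshold (adjusted p = 0.0532).

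The promoters of the 2 called genes with a symbol are shown because the result turns on these genes, and come from RefSeq (build GRCr8, whereas the counts use mRatBN7.2) as 250 bases before to 50 bases after the annotated start. Capitals mark matches, on either strand, to any of 4 motifs: TNAAGGTCA (the extended half-site of estrogen-related receptors), AGGTCA (the nuclear receptor half-site, which the preceding motif contains), TGACGTCA (the cAMP response element) and CAGCTG (an E-box bound by myogenic factors). The Tcte1 window lies at chr9:22970342-22970641 on the minus strand and the Lgr6 window at chr13:49095808-49096107 on the minus strand.
Tcte1: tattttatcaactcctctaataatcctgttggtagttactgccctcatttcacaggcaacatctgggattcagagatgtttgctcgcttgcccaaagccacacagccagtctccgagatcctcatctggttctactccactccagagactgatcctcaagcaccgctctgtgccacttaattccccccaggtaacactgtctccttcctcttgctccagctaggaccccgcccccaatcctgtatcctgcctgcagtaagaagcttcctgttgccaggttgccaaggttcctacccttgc
Lgr6: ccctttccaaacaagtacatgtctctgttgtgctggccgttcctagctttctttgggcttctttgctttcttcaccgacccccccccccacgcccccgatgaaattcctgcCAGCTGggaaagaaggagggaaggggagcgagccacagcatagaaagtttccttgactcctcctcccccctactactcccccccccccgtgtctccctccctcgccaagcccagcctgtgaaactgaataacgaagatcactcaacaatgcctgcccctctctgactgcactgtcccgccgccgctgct
The Tcte1 window held none of the 4 motifs, and the Lgr6 window held 1, a CAGCTG starting at position -139. Among 33469 rat promoters of this length, 15.1% held CAGCTG, 16.2% AGGTCA, 1.83% TGACGTCA and 1.20% TNAAGGTCA. Of the 28 genes called in SM, 27 had a promoter in the table, and 6 of these held CAGCTG, 5 AGGTCA, 2 TNAAGGTCA and 0 TGACGTCA. A match is a run of letters only, and the absence of one says nothing about any factor.

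The genes next in order of p are given as values that did not pass. Below 0 stood Slc37a2, a sugar-phosphate exchanger of the endoplasmic reticulum, at -0.72 (SE 0.141, edgeR adjusted p = 0.0532). Its SM level ran from 5.93 to 16.1 CPM (median 9.72) in sedentary and 7.54 to 21.7 CPM (median 14.6) in trained rats, with groups that overlap in both tissues. Rgl3, a Ral exchange factor listed in the files as a pseudogene, stood at -0.89 (adjusted p = 0.0739), Slc29a4, a monoamine transporter of the plasma membrane, at -1.31 (0.179), and Lgi3 at -0.64 (0.179). These 4 reached adjusted p under 0.05 in 7, 6, 4 and 1 of the 14, 14, 13 and 14 other analyses that tested them.

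On the positive side the order began with Cyct, the testis form of cytochrome c, at 2.99 (SE 0.596, edgeR adjusted p = 0.0541). Its SM counts were close to none: 26 in all over the 15 sedentary libraries, at most 9 in 1 of them, and 1 over the 15 trained libraries, against 35 to 103 per MT library in both arms. Scaled for library size, summed SM counts were 28.4 times higher in the sedentary group, with an exact interval for counting error only from 4.67 to 1166. In MT the summed counts were 978 in trained and 957 in sedentary libraries. Their trained to sedentary ratio, scaled for library size in the same way, was 1.11 (1.01 to 1.21, again for counting error only). In the edgeR fit of MT alone, which takes in the spread between rats, the change was 0.15 (SE 0.083, log2; unadjusted p = 0.0671). Fcgr2a (ENSRNOG00000046663), an Fc receptor of myeloid cells, and C1qa, a complement subunit made by macrophages, stood at 0.98 (SE 0.221) and 0.71 (SE 0.172), with edgeR adjusted p of 0.179 and 0.231. C1qa ran from 7.19 to 32.4 CPM in sedentary SM and from 7.06 to 17.1 CPM in trained SM, and from 4.15 to 12.2 and 6.87 to 13.3 CPM in the MT groups, so that every pair of groups overlapped. Psd3, an exchange factor for Arf6, stood at 0.52 (adjusted p = 0.186), Palldl1 at 0.43 (0.233) and Mettl21c, a muscle lysine methyltransferase, at 1.01 (0.288). Other analyses put an adjusted p under 0.05 on Cyct in 3 of 12, Psd3 in 3 of 14, Fcgr2a in 2 of 13, C1qa and Palldl1 in 1 of 14 each and Mettl21c in 0 of 13.

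The 2 sides of the contrast were also fitted alone, and since they use the same libraries as the difference, their values are given beside it and not as further evidence for it. In SM, 28 of 13570 genes (0.206%) changed with training at an edgeR adjusted p under 0.05, of which 25 (0.184%) rose and 3 (0.0221%) fell; 7.33% lay above and 6.37% below 0 at an unadjusted p under 0.05. In MT, 0 of 19281 genes passed in edgeR, where 912 (4.73%) had an unadjusted p under 0.05 (2.53% above and 2.2% below 0) and the smallest adjusted p was 1.00, and 0 passed in DESeq2 and in limma voom. The 2 sides were measured with unequal precision. Over the 12114 genes fitted in all 3 comparisons with a mean of at least 1 CPM in both tissues, the median SE of the training effect was 0.122 in MT and 0.077 in SM, and 0.153 for the difference.

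The 25 genes raised in SM had a median change of 0.45 there and of -0.04 in MT, with MT values from -0.17 to 0.23, 11 of them above 0 and 14 below. Over all genes tested in MT the median was 0.00, and 50.7% lay above 0. For 24 of the 25, the upper 95% limit of the MT change was below the SM estimate. The exception was Syngr1, a synaptic vesicle protein, whose MT interval reached 0.32 against an SM change of 0.31. Only Wdr54 among the 28 had an unadjusted p under 0.05 in MT (0.23, SE 0.090, p = 0.0114, edgeR adjusted p = 1.00), in the direction of its SM change of 0.54. Of the 28 differences, 28 had an unadjusted p under 0.05 and 2 passed after adjustment over all genes, Tcte1 and Lgr6. The genes were picked on the SM libraries that enter the difference, so its sign and its small unadjusted p in them are fixed in large part by that choice. The same choice favours SM estimates far from 0, and setting an MT limit against such an estimate leaves out the SM error. The count of 24 of 25 is therefore a description and not a test.

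By role, the genes raised in SM that the naming rule selects included Hcn2, a hyperpolarization-activated channel, which rose by 0.49 (SE 0.103, edgeR adjusted p = 0.0333) in SM and stood at -0.05 (SE 0.136) in MT. St3gal5, which makes the ganglioside GM3, rose by 0.45 in SM (SE 0.086) and stood at -0.06 in MT (SE 0.127). Ppip5k1, an inositol pyrophosphate kinase, rose by 0.45 in SM and stood at 0.10 in MT. Hyal3, of the hyaluronidase family, rose by 0.57 and stood at 0.08, and Zim1, an imprinted zinc finger gene, rose by 0.45 and stood at -0.07. Chosen after their values were seen for what they do in energy metabolism, Cox7a1, the muscle form of a cytochrome c oxidase subunit, rose by 0.75 (SE 0.145, edgeR adjusted p = 0.0163) in SM against 0.10 (SE 0.127) in MT, and Got1, the cytosolic aspartate aminotransferase, rose by 0.43 against -0.05. Their differences, -0.65 and -0.51, had edgeR adjusted p of 0.357 and 0.233. Despite its rise, Cox7a1 was not taken by the naming rule, because its mean SM level lay under the floor of 5 CPM. Its mean log2 ratio of MT to SM was 0.95 in sedentary and 0.33 in trained rats. For Got1 the same ratio was -4.19 and -4.70. Of the 3 genes that fell in SM, Tmem38b, a cation channel of the sarcoplasmic reticulum, fell by 0.23 (SE 0.051) in SM and stood at 0.28 (SE 0.169) in MT, a difference of 0.45 (edgeR adjusted p = 0.599).

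**Figure D2:**
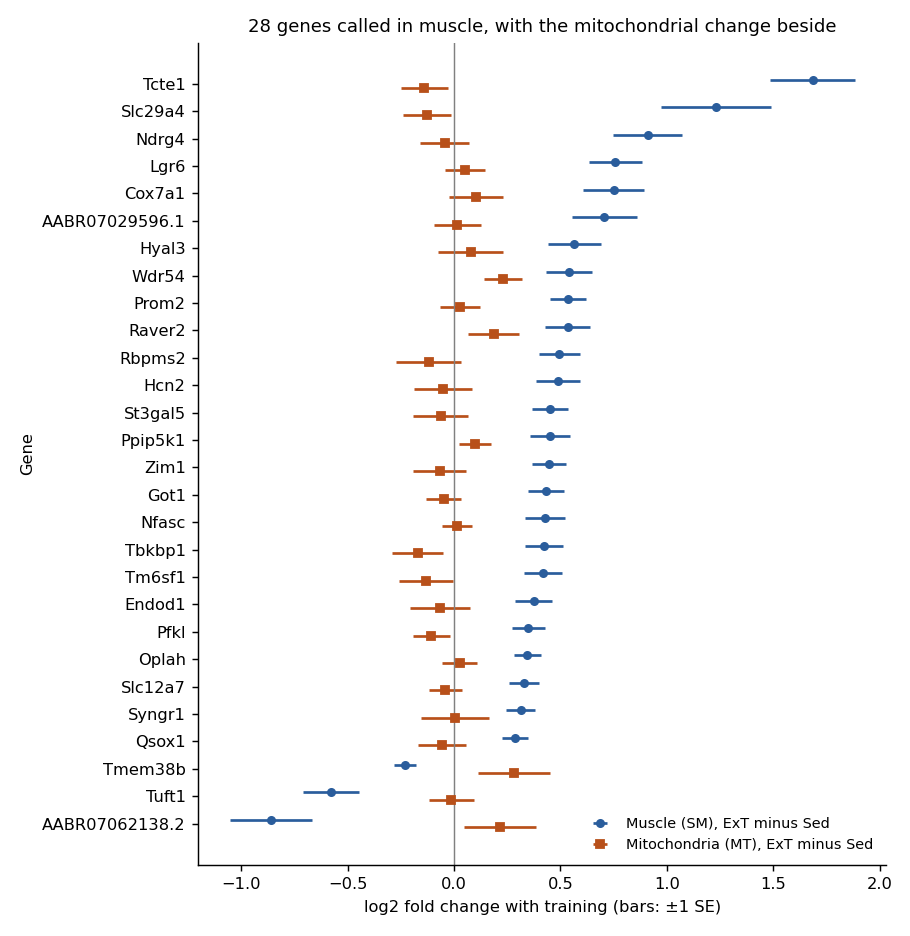
Change with training (log2, with bars of 1 SE) of the 28 genes called in muscle, in muscle (circles) and in mitochondria (squares), ordered by the muscle change. The 25 genes raised in muscle have a median of 0.45 there, and their mitochondrial values lie between -0.17 and 0.23; the genes were selected on the muscle values.

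Genes known to respond to endurance training did not pass in the difference. Of 20 genes of this list, 0 were called and 0 above and 5 below 0 had an unadjusted p under 0.05, with a median of -0.22. Hk2, hexokinase of insulin-sensitive muscle, was at -0.29 (SE 0.119, unadjusted p = 0.0199, edgeR adjusted p = 0.629), and Cpt1b, which admits long-chain fatty acids to mitochondria, at -0.27 (SE 0.122). Ppargc1a, the coactivator of mitochondrial biogenesis, was at -0.24 (SE 0.136) and Cs, citrate synthase, at -0.19 (SE 0.133). Vegfa, an angiogenic growth factor, was at -0.19 (SE 0.240), Ucp3 at 0.29 (SE 0.213), Pdk4 at -0.05 (SE 0.332) and Tfam, which packages and transcribes mitochondrial DNA, at -0.03 (SE 0.153). The signs of Ppargc1a, Pdk4 and Tfam changed in at least 1 other analysis.

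Genes of fatty acid use lay mostly below 0 in the difference without a call. Of 26, 0 were called, 1 above and 9 below 0 had an unadjusted p under 0.05, and the median was -0.27, against -0.01 over all genes. Over all genes tested, 2.86% lay above and 4.4% below 0 at that threshold, the shares to set beside this and every other list. SM changes alone had a median of 0.24 and MT changes one of 0.00. In SM, 12 of 26 lay above 0 at an unadjusted p under 0.05, against 7.33% of all genes tested there. The genes named next were chosen after their values were seen, all lie below 0, and none passed. Lipe, hormone-sensitive lipase, was at -0.52 (SE 0.134, edgeR adjusted p = 0.288). Plin5, a lipid droplet coat protein that contacts mitochondria, was at -0.57 (SE 0.192, edgeR adjusted p = 0.508). Cpt2 and Slc25a20, an enzyme and a carrier that take part in bringing acyl groups into mitochondria, were at -0.43 (SE 0.180) and -0.40 (SE 0.171), with edgeR adjusted p of 0.629 and 0.639. The 23 genes of the citric acid cycle and pyruvate had a median of -0.13, with 0 above and 1 below 0 at an unadjusted p under 0.05.

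Nuclear genes of the respiratory chain had medians near 0. For complex I the median difference over 37 genes was 0.01, with 1 above and 0 below 0 at an unadjusted p under 0.05, and for complexes II to V it was -0.05 over 38 genes, with 0 above and 2 below. Mitochondrial ribosomal proteins, 73 genes, had a median of -0.07 with 1 above and 5 below 0. Cytosolic ribosomal proteins, 90 genes, had a median of 0.14 with 6 above and 0 below, where the SM median was -0.10 and the MT median 0.07. Protein import genes, 21 in all, had a median of 0.03 with none at an unadjusted p under 0.05. None of these lists had a called gene in edgeR, DESeq2 or limma voom.

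Slow-fibre and fast-fibre genes had medians of opposite sign in SM and near 0 in MT (0.03 and 0.07). The median difference was -0.32 over 10 slow-fibre genes and 0.25 over 9 fast-fibre genes, with none at an unadjusted p under 0.05 in either list. In SM alone the medians were 0.34 and -0.27, and 7 of 9 fast-fibre genes lay below 0 at an unadjusted p under 0.05. Myh7, the slow myosin heavy chain, was at -0.48 (SE 0.344) and Myh4, the fastest one, at 0.44 (SE 0.240), and Myh7 changed sign between the rat ranges described below. As a share of nuclear counts, slow-fibre genes made up 0.65% to 4.07% in sedentary and 0.76% to 4.41% in trained SM, and 0.063% to 0.109% in MT. Fast-fibre genes made up 8.67% to 15.97% and 8.54% to 13.1% in SM, and 0.065% to 0.219% in MT. Neither the slow-fibre nor the fast-fibre share passed a permutation test of the difference between arms in the within-rat MT minus SM value (-0.61 and 1.25 percentage points; two-sided permutation test over 30 rats, adjusted p = 0.346 for each of them).

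Markers of other cell types in muscle showed list medians of similar size. Endothelial markers, 9 genes, had a median difference of -0.31, with 0 above and 5 below 0 at an unadjusted p under 0.05. Their summed SM level ran from 701 to 1369 CPM in sedentary and 962 to 1474 CPM in trained rats, and from 179 to 269 and 169 to 224 CPM in MT. Schwann cell markers, 8 genes, had a median of -0.49, with 0 above and 2 below 0 (Sox10, at -1.05, and Prx, at -0.57), and smooth muscle and pericyte markers, 8 genes, one of -0.25 with 0 above and 3 below. The Schwann sum was 55.9 to 300 CPM in sedentary SM and 90.7 to 399 CPM in trained SM, against 82.1 to 112 and 81.7 to 130 CPM in MT. Immune markers, 10 genes, had a median of 0.26, with 2 above and 0 below 0 (C1qa and Itgam), and sums of 141 to 380, 128 to 245, 125 to 167 and 140 to 179 CPM in SM_Sed, SM_ExT, MT_Sed and MT_ExT. In whole muscle, more cells of a type and more RNA per cell cannot be told apart, and the part of these markers in the called genes was not tested. edgeR and limma voom called none of them, and DESeq2 called C1qa (log2 0.73, adjusted p = 0.0490).

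**Figure D3:**
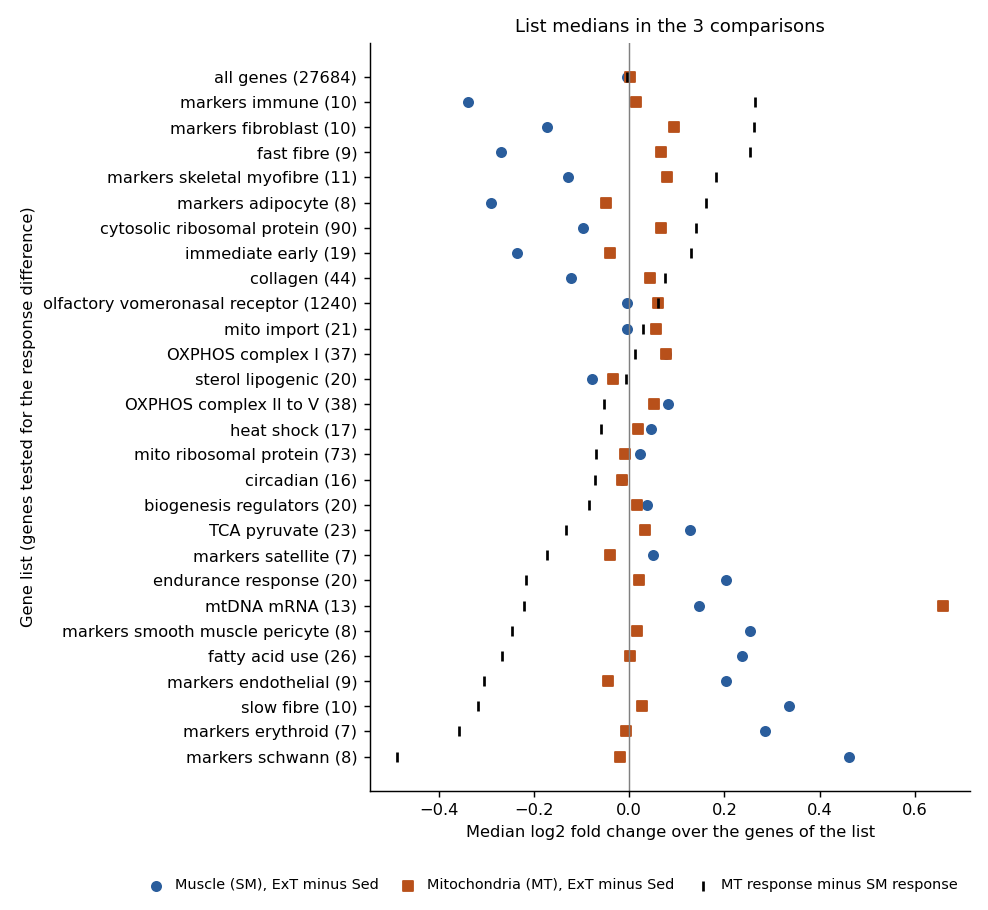
Median change (log2) over the genes of each list, in muscle (circles), in mitochondria (squares) and for the difference (ticks), with the number of genes tested for the difference in brackets; each comparison uses the genes it tested. Lists differ mostly in their muscle medians, and among the lists drawn the mitochondrial medians stay close to 0 except for the 13 mRNAs of the mitochondrial genome, at 0.66. The rRNAs and tRNAs of that genome, at 0.70 and 0.33, are not drawn.

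RNA of the mitochondrial genome gave no called gene and no stable direction. The 13 mRNAs had differences from -0.32 to -0.10 (median -0.22) with SEs of 0.53 to 0.82, and the 2 rRNAs had a median of -0.23. Without the rat block the same 13 genes had a median of 0.45, with 13 of 13 above 0, within rats 17 to 32 one of 0.72 and within rats 2 to 16 one of -1.33, with 13 of 13 below 0, so that their sign rests on the analysis chosen. Fitted alone, the median change of the 13 was 0.15 in SM and 0.66 in MT, which would put the difference above 0. Mt-nd1 was at -0.26 (SE 0.616), Mt-co1 at -0.32 (SE 0.730) and Mt-cyb at -0.28 (SE 0.628), with edgeR adjusted p of 1.00 for each.

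The mitochondrial-genome share itself varied widely between MT libraries of 1 arm. It ran from 12.9% to 92.2% (median 51.5%) in MT_Sed and from 17.1% to 95.4% (median 43.5%) in MT_ExT, against 22.1% to 35.9% and 25.9% to 35.9% in SM_Sed and SM_ExT. In 12 of 15 sedentary and 10 of 15 trained rats the share was higher in MT than in SM. The mean of MT minus SM was 20.5 ± 23.1 percentage points (SD, n = 15) in sedentary and 17.1 ± 28.8 (SD, n = 15) in trained rats, and the difference between arms did not pass (-3.39 points; two-sided permutation test, p = 0.724, adjusted p = 0.817). Within rats 2 to 16 the difference was -18.6 points and within rats 17 to 32 it was 9.92 points, neither past the test. Long noncoding RNA made up 5.59% to 6.85% of nuclear counts in MT and 0.56% to 0.69% in SM. Its MT minus SM value differed between arms by 0.04 points (permutation test, adjusted p = 0.817). Olfactory and vomeronasal receptor genes made up 1.37% to 1.98% of nuclear counts in MT, and 14 of 15 trained rats lay above the sedentary median of the MT minus SM value (0.073 points; permutation test, p = 0.148, adjusted p = 0.346). With the share on a log2 scale that sign turned (-0.03). Rpph1, the RNA of RNase P, stood at 0.32 (SE 0.599), with an edgeR adjusted p of 1.00 and a sign that changed between the rat ranges.

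**Figure D4:**
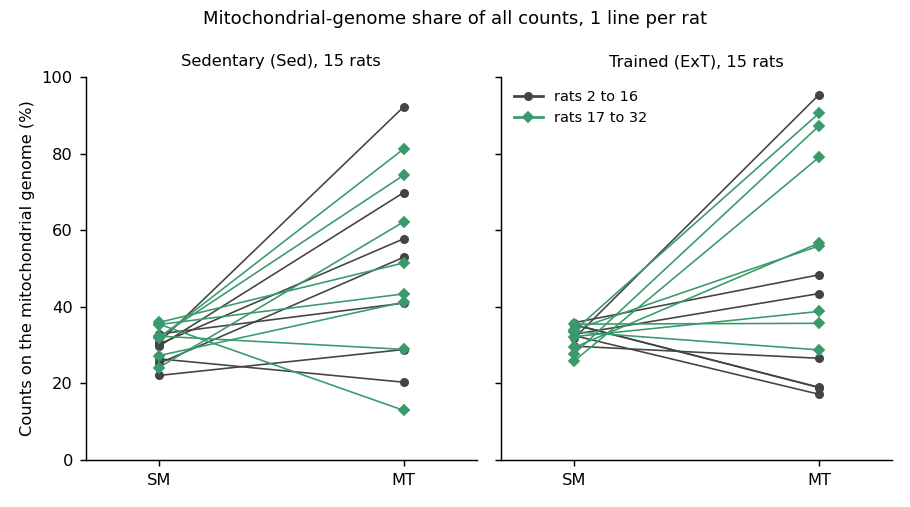
Share of all counts (%) on the mitochondrial genome in the muscle and mitochondria library of each rat, joined by a line, for 15 sedentary and 15 trained rats; grey circles are rats 2 to 16 and green diamonds rats 17 to 32. Mitochondria libraries run from 12.9% to 95.4% and muscle libraries from 22.1% to 35.9%, and some lines fall.

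More genes were called in rats with low numbers than in rats with high numbers, although a direct test of the ranges called 1 gene (below). The labels number the rats and name no batch. Split into rats 2 to 16 (7 per arm) and rats 17 to 32 (8 per arm), the same edgeR test called 28 of 27526 genes (0.102%) in the lower range, 25 below and 3 above 0, and 1 of 27297 (0.00366%) in the higher range, which was Tcte1. Tcte1 was at -2.60 (SE 0.30) in rats 2 to 16 and -1.40 (SE 0.213) in rats 17 to 32. Its SM change was 2.18 in the lower and 1.34 in the higher range. Lgr6 was at -0.99 (SE 0.202) and -0.51 (SE 0.173), the latter with an unadjusted p of 0.00576. SM calls went the same way, with 396 in rats 2 to 16 and 1 in rats 17 to 32, and MT calls were 0 in both.

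Of the 28 genes called in rats 2 to 16, 17 had the same sign in rats 17 to 32, and 3 of those had an unadjusted p under 0.05 there: Tcte1, Lgr6 and Slc37a2. Over all genes tested in rats 17 to 32, 1066 of 27297 had an unadjusted edgeR p under 0.05. The share of all genes with the same sign in both ranges was not computed, so the 17 cannot be read as agreement between ranges. All 25 genes below 0 had an SM change above 0 in rats 2 to 16, and 24 had an MT change below 0. These genes were chosen for their MT minus SM values in that range, so these signs follow in large part from that choice. The values that follow are descriptions for the same reason. They included Fgfr3, a fibroblast growth factor receptor, at -1.54 against 0.02 in the higher range, and Slc29a4, at -2.31 against -0.49. Vascular and smooth muscle genes among them were Eng, a TGF-beta coreceptor of endothelium (-0.97 against -0.01), Podxl, a sialomucin (-1.04 against 0.00), Myocd, the coactivator of smooth muscle genes (-1.001 against -0.32), and Cxcl12, a chemokine (-0.84 against -0.01). Acads, the short-chain acyl-CoA dehydrogenase of mitochondria, was at -1.30 against 0.40, and Wfs1, a protein of the endoplasmic reticulum, at -1.08 against 0.12. Above 0 were Gadd45g, a stress-induced gene (1.31 against 0.12), Itga4, an integrin subunit of leukocytes (0.96 against 0.06), and Psd3 (0.90 against 0.22).

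A test of the ranges against each other, added after these counts were seen, called 1 of 27684 genes (0.00361%) in edgeR, with 1456 at an unadjusted p under 0.05. This was Lmcd1, a LIM-domain cofactor of muscle, at -1.44 (SE 0.240) in rats 2 to 16 and 0.55 (SE 0.199) in rats 17 to 32, a difference of 2.00 (edgeR adjusted p = 0.00215). The same test of the training effect called 0 of 13570 genes in SM (1807 at an unadjusted p under 0.05) and 0 of 19281 in MT (789). This test was run in edgeR alone. The other 27 genes called in the lower range were therefore not shown to differ between ranges after adjustment. Beside these counts stand the fibre shares, again as the within-rat MT minus SM value, trained minus sedentary. In rats 2 to 16 the slow-fibre difference was -1.41 percentage points (exact permutation test, p = 0.0361, adjusted p = 0.0843). The fast-fibre difference there was 2.66 points (exact permutation test, p = 0.0146, adjusted p = 0.0714). MT shares were far smaller, so in SM itself the slow-fibre share was on average higher and the fast-fibre share lower in trained rats of this range. In rats 17 to 32 the 2 differences were 0.09 and 0.02 points. The part of these shares in the calls was not tested.

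**Figure D5:**
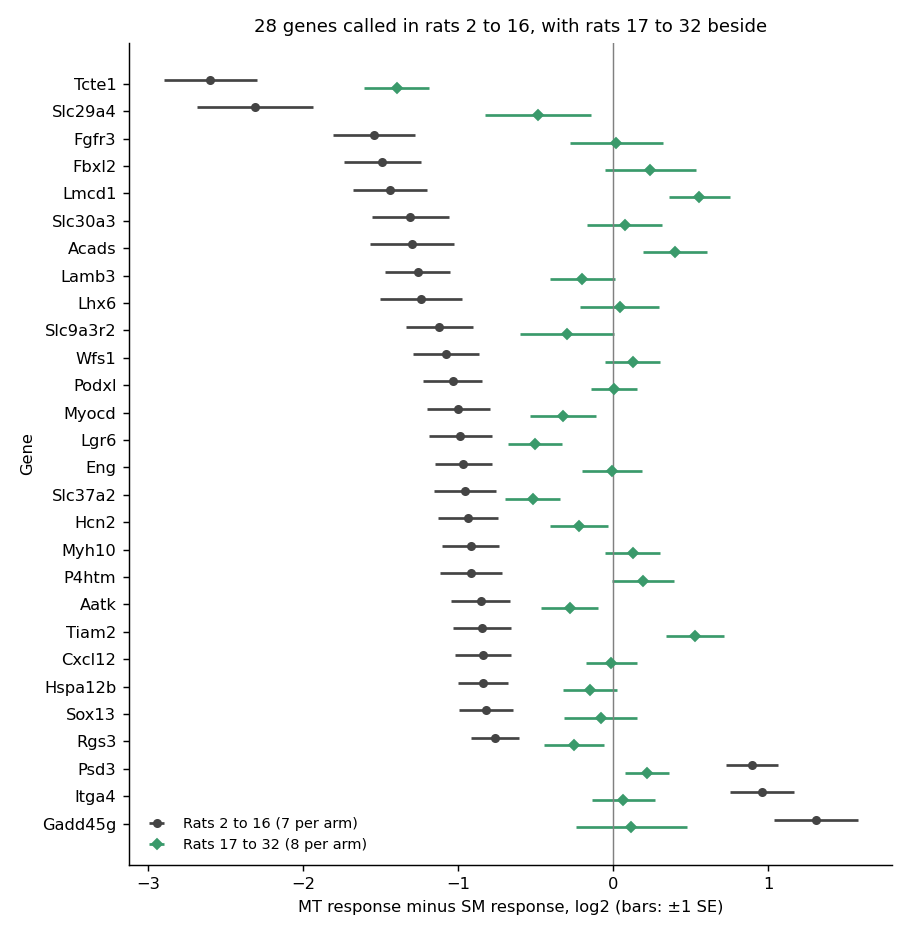
Difference of the training responses (MT minus SM, log2, with bars of 1 SE) in rats 2 to 16 (circles, 7 per arm) and rats 17 to 32 (diamonds, 8 per arm) for the 28 genes called in the lower range, ordered by the value there. All 28 values of the higher range lie nearer to 0, Tcte1 farthest from it at -1.40, and the genes were selected on the lower range.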

How the data were processed

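Total RNA was sequenced from 30 SM and 30 MT libraries, made from 50 ng of SM and 10 ng of MT RNA with 1 kit, per the labels' protocols. The authors deposited whole-number counts per gene for each tissue. The submitters' processing notes name FastQC 0.74, cutadapt 4.6, STAR 2.7.11a, HTSeq and the build mRatBN7.2; their roles, the annotation release and the strand setting are not given in the sources used here. Genes were tested with edgeR 4.0.16 (TMM scaling, filterByExpr, robust quasi-likelihood F test) with the rat as block for the difference and without one for each tissue alone, and called at a Benjamini-Hochberg adjusted p under 0.05. The fit was tested on simulated data. Intervals cover 95%; SEs follow from log2 change and F. Within-rat log2 ratios add 0.5 CPM. Library shares were compared by permuting arms over rats (100000 resamples, exact within rat ranges, 7 measures). Alternatives included DESeq2 1.42.0 and limma 3.58.1 (voom). Fits that left out 1 rat kept the genes tested and the trended dispersion (spread of counts by level) of the full fit.

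The 2 libraries of a rat come from 1 animal, so the numbers pair them; over 12717 genes their deviations correlated with a median r of 0.01, against 0.00 between rats of 1 arm, and 3 of 30 rats exceeded 0.1. No 2 libraries of a group agreed within sampling noise (smallest chi-square per degree of freedom 1.20). Named genes were the called ones with a symbol (at most 12 per direction), the 6 per direction with the smallest p, the 6 per direction with the largest SM change among SM calls of at least 5 CPM, and a set of known response genes with the mitochondrial genome's mRNAs and rRNAs. Genes, lists, motifs and the rat ranges were chosen with earlier results of these data known. Heart libraries were not used here.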

Additional observations from a re-analysis of the deposited data

Results flagged for a closer look

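In the full data, 3 genes were singled out because their response to training differed between the 2 tissues in a direct test of that difference (edgeR's quasi-likelihood test with the rat as block). Tcte1 had a log2 difference of -1.91, with trained muscle above sedentary muscle and overlapping mitochondrial groups. Lgr6 had one of -0.73 with the same arrangement. ENSRNOG00000065488 had one of -3.53, resting on 2 counts in sedentary muscle. Lmcd1 was singled out because the difference between the tissues itself differed between rats 17 to 32 and rats 2 to 16, by 2.00 on the log2 scale, with -1.44 in the lower and 0.55 in the higher range. The labels give no reason why rats of the 2 ranges should differ, and none was tested.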

How the results depend on the processing

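Counts of calls depended on the analysis. For the difference of responses, against 3 calls, there were 5 with no replicate block (the pairing of the 2 libraries of a rat left out), 0 with library totals alone (617 at an unadjusted p under 0.05), 5 with a mean of at least 1 CPM in both tissues, 13 with DESeq2, 12 from a z value of tissues fitted alone, 28 within rats 2 to 16, 1 within rats 17 to 32, 5 with the rat range as covariate, 1 after thinning to the smallest total and 5 with the mitochondrial-genome percent as covariate. Leaving out 1 rat gave 2 to 7. RLE scaling, no filter, limma voom and leaving out the mitochondrial genome's genes gave 3, 3, 3 and 4. In SM, against 28 calls, there were 136 with DESeq2, 88 with limma voom, 396 and 1 within the lower and higher rat range, and 45 with the range as covariate, and in MT there were 0 in each of 9 alternatives.

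Signs turned for values that passed no test. In rats 17 to 32 the difference between arms in the within-rat MT minus SM value was 9.92 points for the mitochondrial-genome share. It was 1.41 and 8.52 points for its mRNA and rRNA shares, -0.0355 for the long noncoding share and 0.0858 for the slow-fibre share. Over all rats the difference was -0.0271 for the receptor share taken as a log2 ratio of MT to SM. The median of the mitochondrial mRNAs and rRNAs was 0.45 and 0.59 without the replicate block, 0.50 and 0.64 with tissues fitted alone, 0.72 and 0.75 in rats 17 to 32 and 0.0871 and 0.21 with the percent as covariate, and the rRNA median was 0.14 with limma voom. Thinning gave 0.0799 for Ppargc1a and 0.17 for Tfam. Myh7 was at 0.18 and Pdk4 at 0.0290 in rats 17 to 32, Rpph1 at -0.44 and Tfam at 0.0883 in rats 2 to 16, Tfam at 0.00985 with limma voom and Pdk4 at 0.0167 with the percent as covariate. The second Tcte1 entry was at 0.00932 without the replicate block, 0.0135 with RLE, 0.0183 with DESeq2, 0.0347 with limma voom and 0.0764 in rats 17 to 32. Leaving out 1 rat moved Tfam from -0.0979 to 0.0224, Pdk4 from -0.17 to 0.0585 and the second Tcte1 entry from -0.20 to 0.12. The causes of these changes were not tested. Depth limits the mitochondrial side: 3 counts in an MT library are 0.699 to 1.69 CPM, against 0.130 to 0.248 CPM in SM.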

Other observations

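Gene groups that the report does not describe also held no called gene in edgeR's test of the difference (nor in DESeq2 or limma voom). Immediate early genes, 19 transcription factors and signalling genes induced by contraction and stress, had a median difference of 0.13 on the log2 scale, with 4 above and 1 below 0 at an unadjusted p under 0.05. Their SM median was -0.24, with 7 below 0 at an unadjusted p under 0.05, and their MT median -0.04. Clock genes, 16 in all, had a median of -0.07 with 2 above and 2 below. Heat shock genes (17) had a median of -0.06, sterol and lipid synthesis genes (20) one of -0.01, and regulators of mitochondrial biogenesis (20) one of -0.08.

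Collagen genes, 44 in all, had a median of 0.07 with 2 above and 3 below 0 at an unadjusted p under 0.05, and fibroblast markers (10) one of 0.26 with 1 above and 0 below. Adipocyte markers (8) had a median of 0.16, erythroid markers (7) one of -0.36, satellite cell markers (7) one of -0.17 and skeletal myofibre markers (11) one of 0.18, with none at an unadjusted p under 0.05 in these 4 lists. Of 1240 olfactory and vomeronasal receptor genes tested, 10 lay above and 16 below 0 at an unadjusted p under 0.05, with a median of 0.06. In MT fitted alone, 453 of them were tested, and 24 lay above and 3 below 0 at an unadjusted p under 0.05. Over all genes tested in MT the shares were 2.53% above and 2.2% below. None of the receptor genes passed after adjustment, and the reason for the uneven counts was not tested. Of the small RNAs, 911 small nucleolar RNAs had a median of 0.03 with 10 above and 4 below, and 531 small nuclear RNAs one of 0.03 with 17 above and 10 below. In MT fitted alone none of these small RNAs had enough counts to be tested. Transfer RNAs of the mitochondrial genome had 10 of 22 tested and a median of 0.16, and 3 abundant noncoding RNAs had one of 0.30.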
